A study of Nannochloropsis oceanica with 8 samples.

Results

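The regions described here are the ChIP-seq peaks on chromosomes 2 and 3 of *Nannochloropsis oceanica* (strain IMET1), a single-celled oil-storing alga of the sea. They were chosen by chromosome name alone and number 714 of the 6185 peaks, with 376 on chromosome 2 and 338 on chromosome 3. The other 5471 peaks lie on 28 other chromosomes. The pair of chromosomes was selected on earlier results of these data, in which Kbu change was compared along the chromosomes, so how they stand against the other chromosomes is given as a description.

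Cultures of the same strain grew under continuous light in buffered medium and were first aerated with 5% CO2. Some were then switched to 0.04% CO2 (low CO2) and the rest stayed at 5% CO2 (high CO2), and cells were taken at 24 h. There were 2 libraries each of Kbu at low CO2, Kbu at high CO2, H3K9me2 at low CO2 and H3K9me2 at high CO2. The labels describe several cultures per CO2 level without tying libraries to them, so p-values measure the spread between libraries, which may be technical. Each H3K9me2 library also carries an antibody lot number of its own.

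Kbu commonly stands for lysine butyrylation, an acyl mark that histone lysines can carry in place of acetylation and that is found at active genes in the organisms where it has been mapped. The acyl group comes from butyryl-CoA, which ties the mark to carbon and lipid metabolism. H3K9me2, dimethylation of lysine 9 of histone H3, marks silent, compact chromatin in plants, animals and many fungi. The question put to these maps was how the supply of CO2 alters where the marks lie.

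The unit of comparison was the pileup, the number of ChIP reads stacked at a peak. A level is the pileup divided by the lowest control value of its library, taken as the genome background, which is an assumption. The median chromosome 2 peak had 168 and 106 stacked reads in the Kbu libraries at low CO2, against 794 and 579 at high CO2. In the H3K9me2 libraries it had 69 and 38 reads at low CO2, against 51 and 29 at high CO2, so single-peak H3K9me2 values are the less precise. The control was itself raised at these peaks at low CO2. Its median on chromosome 2 was 3.73 and 3.68 times genome background in the Kbu libraries at low CO2, against 1.29 and 1.23 at high CO2. On the other chromosomes it was 3.52 and 3.50 at low CO2, against 1.34 and 1.28 at high CO2. The part of this control difference in the results was not tested.

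Chromosome 2 peaks ran from position 7434 to 1665750 and chromosome 3 peaks from position 336 to 1660502, in a genome build that the sources used here do not name. Chromosome 2 was the most densely peaked of the 30 chromosomes, with 22.7 peaks per 100 kb, against 15.1 to 22.1 on the other 28. Chromosome 3 had 20.4 peaks per 100 kb. The median peak was 1047 bp wide on chromosome 2, 1070 bp on chromosome 3 and 1027 bp elsewhere. Median spacing was 2985 bp on chromosome 2 and 2866 bp on chromosome 3, against 3155 bp on the other chromosomes. Chromosome 2 had no gap over 20000 bp, its widest being 15583 bp between peak2525 and peak2526. Chromosome 3 had 3 such gaps, the widest being 56920 bp from the end of peak4099 at position 228616 to the start of peak4100 at position 285536. A second one, of 51627 bp, lay between peak4213 and peak4214.

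Measured over genome background, Kbu was lower at low CO2 over most of both chromosomes. The median level over chromosome 2 peaks was 2.54 and 2.63 times genome background at low CO2, against 3.61 and 3.64 at high CO2. Over chromosome 3 peaks it was 2.52 and 2.63 at low CO2, against 3.78 and 3.76 at high CO2. On the other 28 chromosomes it was 2.54 and 2.63 at low CO2, against 3.71 at high CO2 in both libraries. The low-CO2 and high-CO2 libraries did not overlap in any of these medians. At low CO2 these medians were alike, and at high CO2 that of chromosome 2 was the lowest of them. Among single chromosomes it was not the lowest. The mean of its 2 high-CO2 library medians was 3.62, against 3.59 to 3.87 on the other 28 chromosomes taken singly. Counted peak by peak, both low-CO2 libraries lay below both high-CO2 libraries at 327 of 376 chromosome 2 peaks and 295 of 338 chromosome 3 peaks (all peaks, 88.9%). This direction rests on the genome background and was absent from the deposited normalised value, which divides by the local control. There the median Kbu change, low over high CO2, was 0.029 (log2) on chromosome 2 and 0.00022 on chromosome 3, against 0.071 over all peaks.

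Measured over genome background, H3K9me2 was low at most peaks and slightly higher at low CO2. Its median level was 1.50 and 1.65 times genome background at low CO2, against 1.29 and 1.44 at high CO2, on chromosome 2. On chromosome 3 it was 1.52 and 1.69 at low CO2, against 1.32 and 1.44 at high CO2. The low-CO2 medians all lay above the high-CO2 medians, but the lower low-CO2 library exceeded the higher high-CO2 library by little. Both low-CO2 libraries lay above both high-CO2 libraries at 188 chromosome 2 peaks (50.0%) and 179 chromosome 3 peaks (53.0%), against 45.9% of all peaks. On the deposited normalised value the median H3K9me2 change, low over high CO2, was 0.0094 (log2) on chromosome 2. It was 0.046 on chromosome 3 and 0.081 over all peaks, so the size of the rise depended on the quantity measured.

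**Figure D1:**
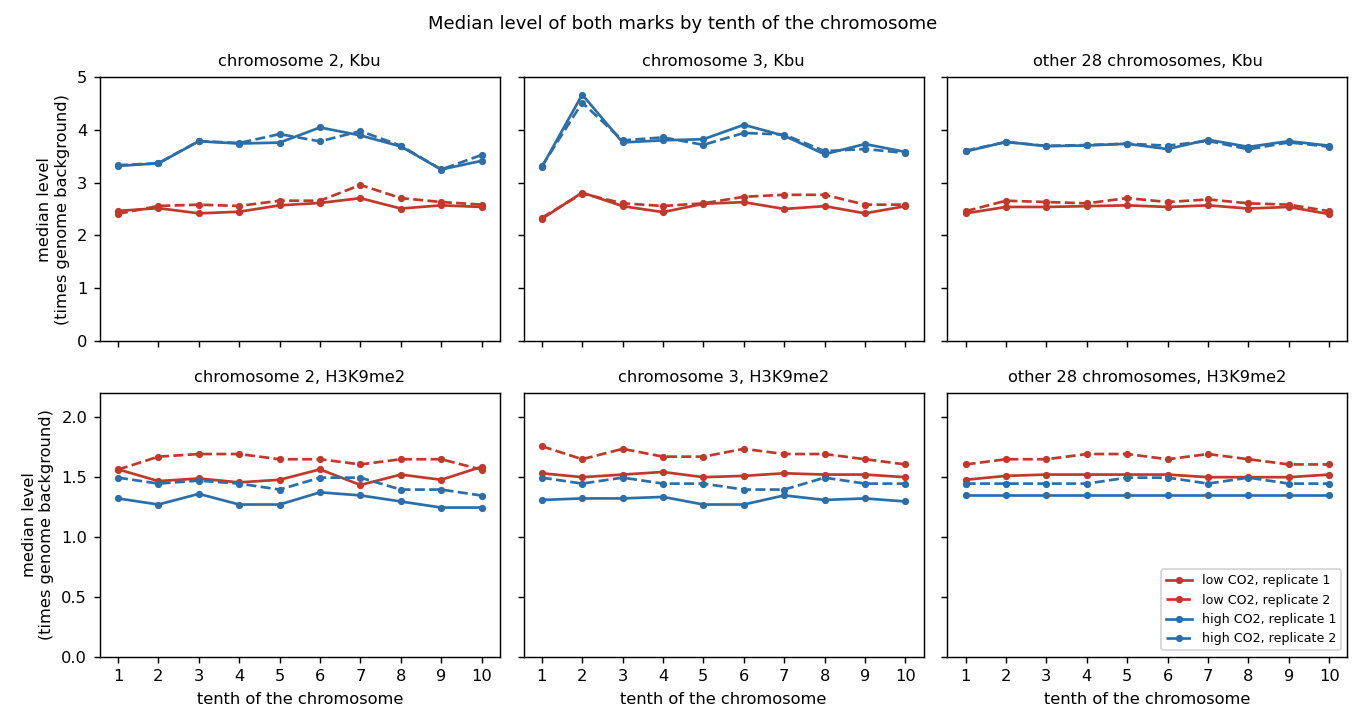
Median level per library (times genome background, y axis) of Kbu (top) and H3K9me2 (bottom) in 10 equal segments of each chromosome (x axis), for chromosome 2, chromosome 3 and the other 28 chromosomes. The low-CO2 Kbu lines lie between 2.31 and 2.96 everywhere, while the high-CO2 Kbu lines dip to 3.25 to 3.53 in the 2 outer segments at each end of chromosome 2 and reach 4.67 in segment 2 of chromosome 3.

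Because the overall Kbu level differed between CO2 levels, peaks were tested relative to the bulk, after scaling each library to the same geometric mean pileup over all 6185 peaks. On that scale 92 chromosome 2 peaks (24.5%) and 75 chromosome 3 peaks (22.2%) had higher Kbu at low CO2 than the bulk, by limma with a Benjamini-Hochberg adjusted p under 0.05, where 21.8% of all peaks were called. Lower Kbu was called at 66 chromosome 2 peaks (17.6%) and 61 chromosome 3 peaks (18.0%), where 25.2% of all peaks were called. The share called higher was near the background. The share called lower was below it on both chromosomes, the lowest and second lowest of all 30, against 19.8% to 37.3% on the other 28.

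The low share of lowered peaks depended on the quantity measured. With 1 library left out at a time, chromosome 2 ranked from lowest to 7th lowest and chromosome 3 from second to 7th lowest. On the authors' deposited normalised value, which divides pileup by the local control, lower Kbu was called at 32.7% of chromosome 2 peaks and 35.2% of chromosome 3 peaks, against 30.4% of all peaks, and chromosome 3 then had the highest share of the 30. Higher Kbu was called there at 35.9% and 36.4%, against 40.0% of all peaks. The control differed between chromosomes as well. Its low-over-high change relative to all peaks had a median of 0.14 (log2) on chromosome 2, the highest of 30. On chromosome 3 it was 0.073, against -0.087 to 0.075 on the other chromosomes. The part of the control in these shares was not tested. Leaving out a library also moved the counts over both chromosomes, and those of the other 28 chromosomes moved in the same direction. Without Kbu high-CO2 replicate 1 or replicate 2, 110 and 106 peaks were called higher instead of 167, and 67 were called lower in both cases instead of 127. Without Kbu low-CO2 replicate 1, 191 were called lower.

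Compared over libraries instead of peaks, the chromosome-wide difference was small. The median log2 pileup of chromosome 2 peaks minus that of the other 28 chromosomes was 0 in both Kbu libraries at low CO2, against -0.041 and -0.031 at high CO2. The difference was 0.036, and it turned to -0.052 on the deposited normalised value. For chromosome 3 the difference was -0.029, and it turned to 0.042 when means over peaks replaced medians. For H3K9me2 the differences were 0.028 on chromosome 2 and 0.043 on chromosome 3. The chromosome 2 libraries stood at 0 and 0 at low CO2, against -0.055 and 0 at high CO2. The value of -0.055 reflects medians of 51 against 53 stacked reads. The chromosome 3 libraries stood at 0.021 and 0.037 at low CO2, against -0.027 and 0 at high CO2. These are descriptions, since 2 against 2 libraries allow no exact p below 0.33.

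**Figure D2:**
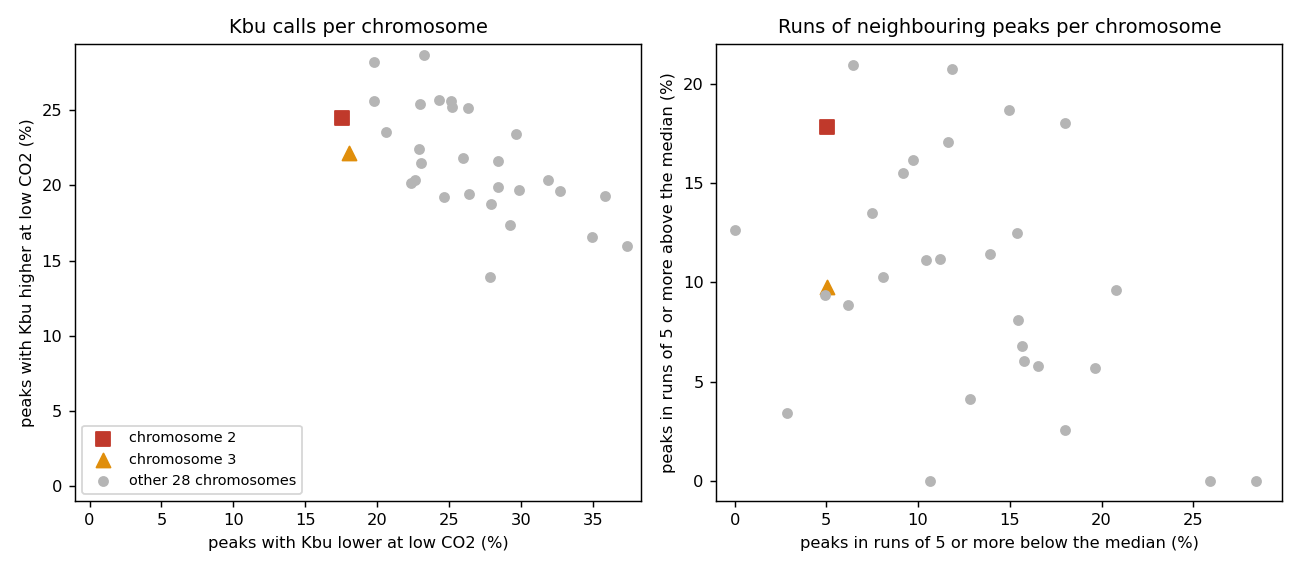
Each point is a chromosome. Left, percent of its peaks called with Kbu higher (y axis) against lower (x axis) at low CO2, relative to the bulk; chromosomes 2 (17.6% lower) and 3 (18.0% lower) are the leftmost points. Right, percent of its peaks in runs of at least 5 neighbours above (y axis) or below (x axis) the median Kbu change; both chromosomes have about 5% in runs below, and chromosome 2 has 17.8% in runs above.

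Along chromosome 2, Kbu was kept more often near the ends than in the middle. In the 4 outer of its 10 segments (segments 1, 2, 9 and 10; 137 peaks), 45 peaks (32.8%) had higher Kbu at low CO2 than the bulk and 14 (10.2%) had lower Kbu. In its 6 inner segments (239 peaks) these numbers were 47 (19.7%) and 52 (21.8%). By single segment, the share higher was 31.0% to 33.3% in the outer and 9.30% to 28.2% in the inner ones. The share lower was 5.56% to 15.2% in the outer and 9.76% to 27.0% in the inner ones. Inner segment 8 (9.76%) thus had a smaller share lower than outer segments 1 and 9. On the other 28 chromosomes pooled, the outer segments ran the opposite way, with 20.1% higher and 31.1% lower. Their inner segments had 22.4% higher and 23.6% lower. By chromosome, their outer share called higher ran from 5.26% to 36.7%, so the 32.8% of chromosome 2 was not the highest. Their outer share called lower ran from 16.0% to 47.4%, all above the 10.2% of chromosome 2. These segments were picked after the values were seen, so the contrast is a description.

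Outer and inner peaks of chromosome 2 differed in Kbu level mainly at high CO2. The median Kbu level of the outer chromosome 2 peaks was 2.53 in both libraries at low CO2, against 3.36 and 3.33 at high CO2. The inner peaks had 2.54 and 2.66 at low CO2, against 3.79 and 3.78 at high CO2. Outer and inner peaks were thus close to each other at low CO2, and the outer ones were the lower at high CO2. The control's low-over-high change relative to all peaks had a median of 0.044 (log2) in the outer and 0.17 in the inner segments. On the other chromosomes it was -0.069 in the outer and 0.014 in the inner segments. The part of the control in this contrast was not tested. The share of outer chromosome 2 peaks with lower Kbu was the lowest of the 30 chromosomes with each library left out in turn (5.11% to 17.5%). Against genome background it was the second lowest (73.0% of outer peaks lower, where 83.7% of all peaks were), and on the deposited normalised value the fourth lowest (23.4%).

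Over its 4 outer segments together, chromosome 3 did not show this pattern. These had 22.5% of peaks higher and 21.7% lower. Its inner segments had 22.0% higher and 16.1% lower, the lowest inner share of the 30 chromosomes. The first segment of chromosome 3 was also low in Kbu at high CO2. Its median levels were 2.31 and 2.34 at low CO2, against 3.30 and 3.31 at high CO2. In it 29.4% of peaks were higher and 23.5% lower. The second segment of chromosome 3 holds only 18 peaks and contains the widest gap. It stood lowest, with a median change of -0.15 (log2, low over high CO2, relative to all peaks) and 8 of 18 peaks lower. The high-CO2 level was the highest there, with median Kbu levels of 2.81 and 2.80 at low CO2, against 4.67 and 4.52 at high CO2. Peak4092 in this segment, chr3:179924-181071, had the highest Kbu at high CO2 of either chromosome. Its level was 3.60 and 3.58 at low CO2, against 7.06 and 7.40 at high CO2, so that it stayed above the chromosome's low-CO2 median.

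Stretches where Kbu was kept were defined as at least 5 neighbouring peaks whose Kbu change all lay above the median change of all peaks. Single peaks above that median made up 57.2% of chromosome 2, 53.6% of chromosome 3 and 49.3% of the other chromosomes pooled. A larger share of such peaks gives more runs even without any order along the chromosome. How much of the run counts comes from this share was not tested. Chromosome 2 held 11 such stretches with 67 peaks (17.8%), and chromosome 3 held 6 with 33 peaks (9.76%), against 10.8% of all peaks and 0 to 21.0% on the other chromosomes. They spanned 11290 to 29282 bp on chromosome 2 and 18782 to 29207 bp on chromosome 3. The longest held 9 peaks, peak2427 to peak2435. Runs of the opposite sign held 19 and 17 peaks, or 5.05% and 5.03%. On the other chromosomes together the share was 12.5%, and by chromosome it ran from 0 to 28.4%. No stretch kept 5 peaks in a row when each had to exceed the median by 0.25 (log2).

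The stretches of chromosome 2 gathered at its ends. Of their 67 peaks 62 lay in the 4 outer segments, which hold 36.4% of the chromosome's peaks, and 10 of the 11 stretches lay wholly there. On the other 28 chromosomes 21.0% of stretch peaks lay in the outer segments, and on chromosome 3 6 of 33. With a library left out, 66.2% to 91.9% of the chromosome 2 stretch peaks were in the outer segments. On the deposited normalised value the stretches were different in number and place, with 24 of 36 stretch peaks in the outer segments on chromosome 2 and 28 of 28 on chromosome 3.

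Kept is meant relative to the bulk. Inside the stretches the median over peaks of the mean Kbu level was 2.63 at low CO2, against 3.30 at high CO2, on chromosome 2, and 2.72 at low CO2, against 3.35 at high CO2, on chromosome 3. Outside them it was 2.59 at low CO2, against 3.73 at high CO2, on chromosome 2. At 50 of the 67 chromosome 2 stretch peaks and 25 of the 33 on chromosome 3 both low-CO2 libraries still lay below both high-CO2 libraries in level. Both lay above at 9 and 5 of them. The control's median change relative to all peaks was -0.011 (log2) inside and 0.16 outside the stretches on chromosome 2. On chromosome 3 it was 0.097 inside and 0.069 outside. The part of the control in the stretches was not tested.

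**Figure D3:**
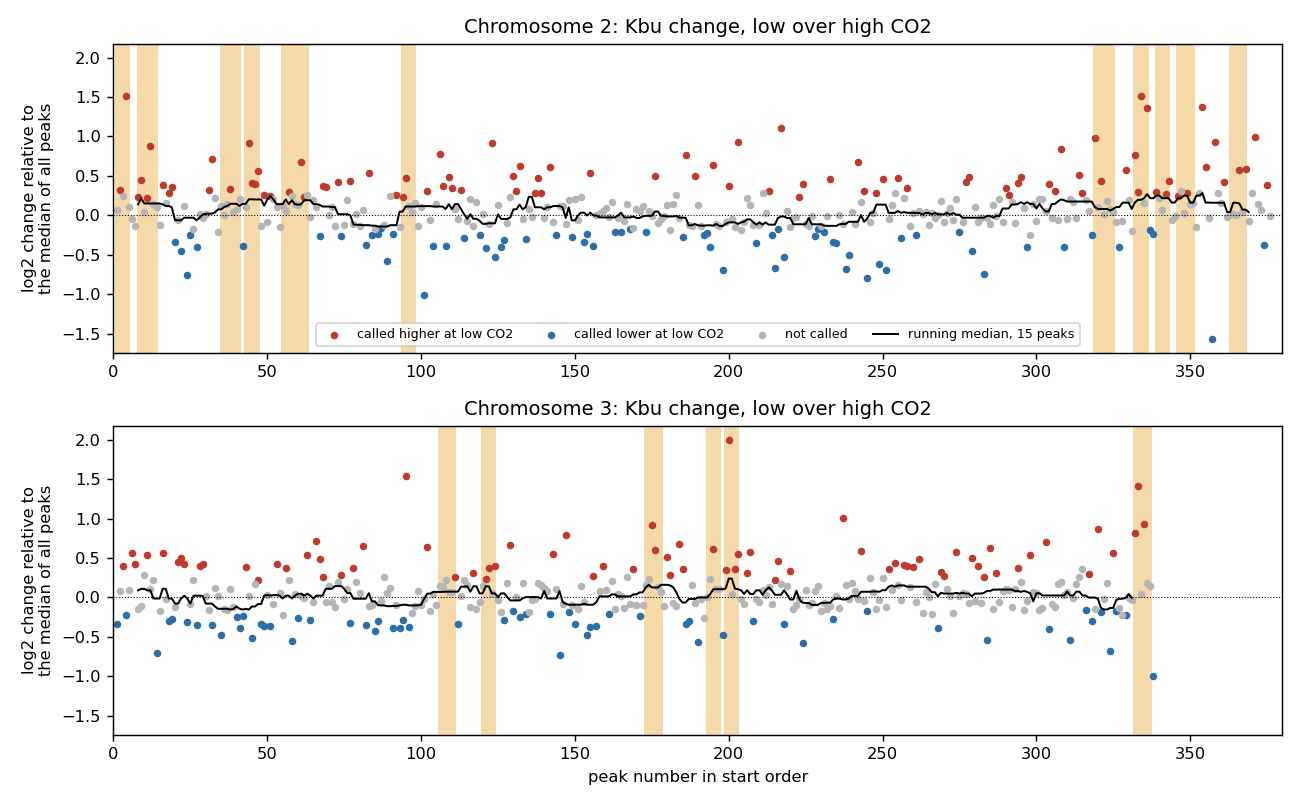
Kbu change at each peak (log2, low over high CO2, minus the median of all peaks; y axis) in start order (x axis) on chromosomes 2 and 3. Red and blue points were called higher and lower by limma, grey points were not called, the line is a running median over 15 peaks, and shaded bands are the 11 and 6 stretches; the bands of chromosome 2 crowd at both ends.

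Over all pairs of next neighbours, those inside the stretches included, the Kbu change of a peak said little about that of the next. The correlation of the Kbu change between next neighbours was -0.017 over 375 pairs on chromosome 2 and -0.0049 over 337 pairs on chromosome 3, against 0.057 over 5443 pairs elsewhere. All pairs share the same 4 libraries. A chromosome 2 peak and its next neighbour were both higher in 25 pairs (6.67%), both lower in 12 (3.20%) and called in opposite directions in 31 (8.27%). On chromosome 3 there were 17, 8 and 28 such pairs (5.04%, 2.37% and 8.31%), and elsewhere the shares were 5.00%, 7.86% and 10.8%. Peak2588 and peak2589, 5613 bp apart from end to start, are one example of neighbours that parted. Peak2589 rose relative to the bulk and peak2588 fell in both marks.

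Against genome background, Kbu rose at few peaks. Both low-CO2 libraries exceeded both high-CO2 libraries in level at 24 chromosome 2 peaks (6.38%) and 17 chromosome 3 peaks (5.03%), against 5.14% of all peaks. All of these were also called higher relative to the bulk. They were 304 to 1789 bp wide on chromosome 2 and 322 to 2656 bp wide on chromosome 3.

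The strongest stretch of chromosome 2 was chr2:1444238-1457367, which holds peak2704 to peak2708 and has a median relative change of 0.76 (log2). Its last peak, peak2708 (chr2:1456314-1457367), led the named Kbu gains of the chromosome. Its Kbu level was 3.80 and 4.10 at low CO2, against 2.05 and 2.32 at high CO2, and its H3K9me2 level was 2.41 and 3.12 at low CO2, against 1.04 and 0.80 at high CO2. Both low-CO2 libraries lay above both high-CO2 libraries in each mark. The relative change was 1.36 ± 0.08 for Kbu (log2, SE, n = 2 each; limma adjusted p = 1.39e-06) and 1.33 ± 0.15 for H3K9me2 (limma adjusted p = 2.62e-14). Peak2706, chosen after its values were seen, is 626 bp wide and had a Kbu level of 2.48 and 2.44 at low CO2, against 1.23 and 1.15 at high CO2. It is therefore near background at high CO2 and a Kbu peak at low CO2, with a control that fell relative to other peaks by 1.05 (log2). Not all of the stretch did this, since peak2707 between them kept a Kbu level under 2 at both CO2 levels.

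On chromosome 3 the stretch at the far end, chr3:1640138-1658924, held peak4389 to peak4394. Peak4390 (chr3:1642707-1644203) carried the highest Kbu of chromosome 3 at low CO2. Its level was 5.97 and 5.96 at low CO2, against 3.11 and 3.26 at high CO2, and the groups did not overlap. The relative change was 1.42 ± 0.07 (log2, SE, n = 2 each; limma adjusted p = 1.92e-07). H3K9me2 there was 2.54 and 2.64 at low CO2, against 1.29 and 1.69 at high CO2. Peak4392 rose as well, with a Kbu level of 4.11 and 4.90 at low CO2, against 3.32 and 3.38 at high CO2. Peak4391 between them did not, at 2.74 and 2.71 at low CO2, against 4.08 and 3.56 at high CO2. The next and last peak of the chromosome, peak4395 (chr3:1659499-1660502), lies 575 bp beyond the stretch. Its Kbu level was 1.30 and 1.07 at low CO2, against 3.37 and 3.55 at high CO2, so Kbu was close to genome background there only at low CO2. Its relative change was -0.99 ± 0.11 (limma adjusted p = 6.03e-05).

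Another stretch, chr3:1023007-1043608, begins with the most H3K9me2-rich peaks of either chromosome. Peak4256 (chr3:1023007-1024806) had H3K9me2 levels of 5.82 and 6.50 at low CO2, against 3.40 and 3.63 at high CO2. Its neighbour peak4257 (chr3:1030681-1031720), chosen after its values were seen, had 6.34 and 5.07 at low CO2, against 4.49 and 4.23 at high CO2. These were the only peaks of the 714 with H3K9me2 at least 2 times genome background in both high-CO2 libraries. The relative H3K9me2 change was 0.61 ± 0.17 at peak4256 (limma adjusted p = 0.0188) and 0.19 ± 0.18 at peak4257 (limma adjusted p = 0.725). Kbu differed between the neighbours. Peak4257 had a Kbu level of 3.39 and 3.18 at low CO2, against 1.02 and 1.26 at high CO2, and peak4256 had 4.01 and 4.52 at low CO2, against 4.87 and 4.73 at high CO2. Kbu was thus near genome background on the H3K9me2-rich peak4257 at high CO2 and both marks were present there at low CO2. The control of peak4257 fell by 1.89 (log2) relative to other peaks; the part of this in the result was not tested.

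**Figure D4:**
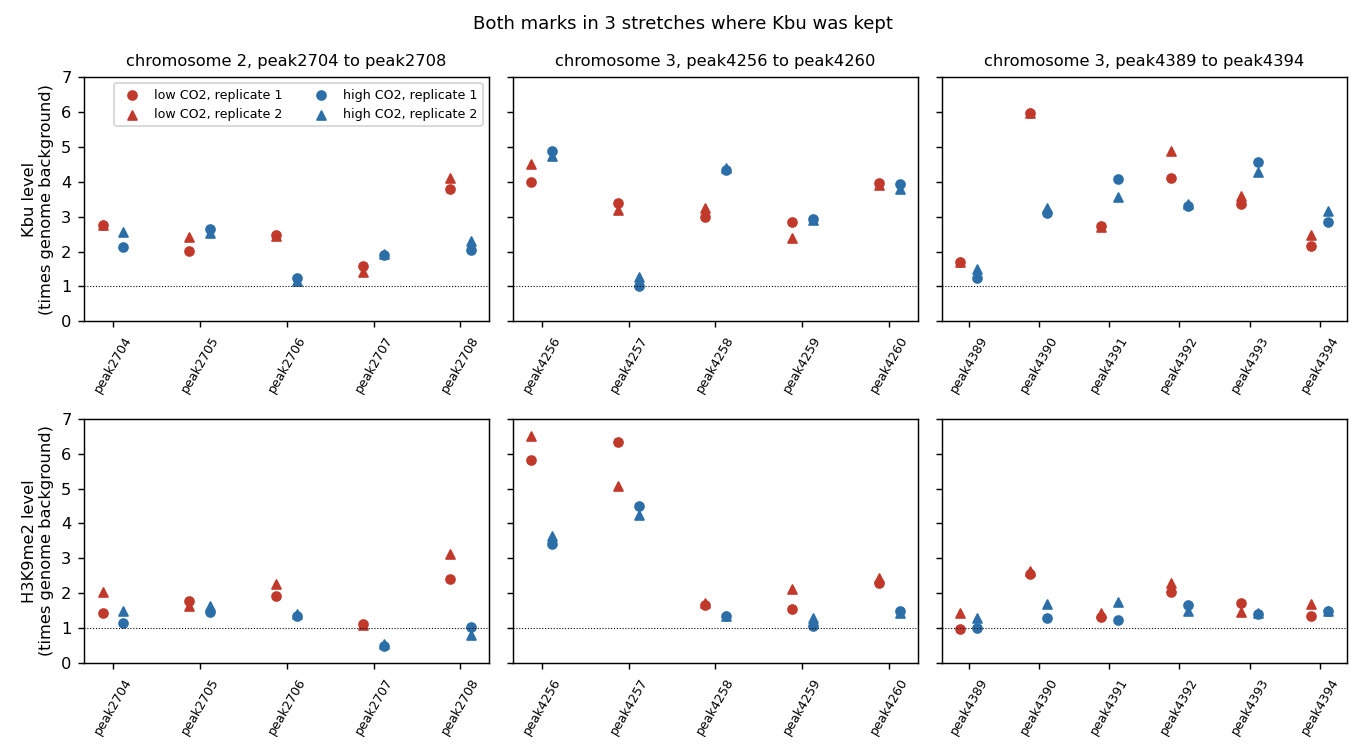
Level of Kbu (top) and H3K9me2 (bottom) in each library (y axis, times genome background; dotted line at 1) at the peaks (x axis) of 3 stretches. In each stretch 1 to 3 peaks have both low-CO2 Kbu libraries above both high-CO2 libraries, and peak4256 and peak4257 have H3K9me2 above 3 at both CO2 levels.

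The other named Kbu gains of chromosome 2 lay outside the stretches and were peak2589, peak2495, peak2680 and peak2478. Peak2680 (chr2:1331827-1333616) had the highest Kbu of chromosome 2 at low CO2, with a level of 5.70 and 5.91, against 4.58 and 4.72 at high CO2. The named gains of chromosome 3 also included peak4232, inside a stretch, and peak4204 and peak4123. Relative changes of the 10 named gains on both chromosomes were 0.72 to 1.42 (log2), and their limma adjusted p-values were at most 1.06e-04. The call at peak4123 was lost against genome background (limma adjusted p = 0.056), and those at peak2680 and peak2478 on the deposited normalised value (limma adjusted p = 0.072 and 0.742). The other calls at named Kbu gains held in these alternatives and with each library left out.

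The named Kbu losses lay at peaks with much Kbu at high CO2. Peak2473 (chr2:473857-474804) had a Kbu level of 1.44 and 1.56 at low CO2, against 4.33 and 4.54 at high CO2. Peak4202 (chr3:747996-748975) had 1.74 and 1.69 at low CO2, against 4.15 at high CO2 in both libraries. The relative changes were -1.01 ± 0.08 (limma adjusted p = 6.61e-06) and -0.73 ± 0.08 (limma adjusted p = 4.61e-05). The other 8, peak2655, peak2623, peak2587 and peak2461 on chromosome 2 and peak4071, peak4381, peak4281 and peak4247 on chromosome 3, changed by -0.56 to -0.75. The deepest drop of either chromosome was at peak2729 (chr2:1549565-1551183), which was chosen after its value was seen, since its mean log2 scaled pileup over the 4 Kbu libraries lay in the lowest 25% of peaks, which the naming rule leaves out. It had 1.13 and 1.19 at low CO2, against 5.14 and 5.09 at high CO2. Across peaks the Kbu change ran against the high-CO2 level, with a correlation of -0.55 over 376 peaks and -0.57 over 338 peaks, against -0.46 elsewhere. The high-CO2 value enters both sides of this correlation.

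The few peaks poor in Kbu at high CO2 stood higher relative to the bulk at low CO2. A level under 2 in at least 1 high-CO2 library was found at 24 chromosome 2 peaks (6.38%) and 25 chromosome 3 peaks (7.40%), against 403 peaks elsewhere (7.37%). Their median width was 435 and 534 bp, against 1068 and 1084 bp for the rest of these chromosomes. Relative to the bulk, 17 and 19 of them were called higher, and 0 and 1 lower, against 208 higher and 34 lower of the 403 elsewhere. In level, however, their medians on chromosome 2 were 1.63 and 1.76 at low CO2, against 1.62 and 1.63 at high CO2, and on chromosome 3 1.91 and 1.94 at low CO2, against 1.85 and 1.88 at high CO2. Both low-CO2 libraries lay above both high-CO2 libraries at 12 and 8 of them, below at 7 and 7, and the groups overlapped at 5 and 10. Elsewhere 131 of the 403 lay above and 216 below, a difference in balance that was not tested. The high-CO2 value that chose these peaks also enters their change. Their control change had a median of -0.97 and -0.80 (log2) relative to all peaks. Peak2376 (chr2:15875-16477) lies among the first peaks of chromosome 2 and gained both marks; it was chosen after its values were seen. Its Kbu level was 2.00 and 1.99 at low CO2, against 0.96 in both libraries at high CO2, and its H3K9me2 level was 3.60 and 3.29 at low CO2, against 1.19 and 1.89 at high CO2. Its control fell by 1.28 (log2) relative to other peaks.

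H3K9me2 changed at few peaks, and mostly upwards. Relative to the bulk, 14 peaks of chromosome 2 and 13 of chromosome 3 had higher H3K9me2 at low CO2 by limma (3.72% and 3.85%, against 3.99% of all peaks), and 5 and 3 had lower (1.33% and 0.888%, against 1.03% of all peaks). These shares were near the background. Leaving out any library lowered the number of gains, on the other 28 chromosomes as well. With 1 library left out at a time, 14 to 16 peaks of both chromosomes were called higher and 0 to 7 lower. Each of the 4 H3K9me2 libraries moved the number of gains by over 1.5 times when left out. The number of losses was 4 without low-CO2 replicate 1, 0 without low-CO2 replicate 2 and 1 without high-CO2 replicate 2. Without low-CO2 replicate 2, 25 peaks were lower at an unadjusted limma p under 0.05. Against genome background 22 and 18 peaks were called higher (5.85% and 5.33%, against 4.92% of all peaks). On the deposited normalised value 22.6% and 22.8% were higher, against 24.5% of all peaks, and 17.3% and 11.8% lower, against 12.1% of all peaks, the chromosome 2 share of lower calls being the highest of the 30.

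Most gains in H3K9me2 lay on peaks also called higher in Kbu. Of the 14 and 13 peaks with higher H3K9me2, 13 and 10 also had higher Kbu relative to the bulk, against 67.7% of the 220 such peaks elsewhere. Both marks were higher at 23 of the 714 peaks, against 2.78% of all peaks. Both marks were lower at 4, against 0.388% of all peaks. The correlation of the marks' changes over peaks was 0.37 on chromosome 2 and 0.32 on chromosome 3, against 0.37 elsewhere. Peaks are not independent replicates, and both marks share the peak set.

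Peak2482 (chr2:516167-517825) had the highest H3K9me2 of chromosome 2 at low CO2. Its H3K9me2 level was 4.75 and 4.94 at low CO2, against 1.42 and 1.69 at high CO2, and its Kbu level was 4.96 and 4.32 at low CO2, against 5.16 and 5.31 at high CO2. The H3K9me2 groups were far apart, while Kbu was a little lower in level. Relative to the bulk, Kbu was called higher there, by 0.35 ± 0.08 (limma adjusted p = 0.00838). The relative H3K9me2 change was 1.41 ± 0.15 (log2, SE, n = 2 each; limma adjusted p = 2.49e-15). The widest peak of chromosome 2, peak2733 (chr2:1571287-1574199, 2912 bp), also rose in H3K9me2, with a level of 3.21 and 4.29 at low CO2, against 1.47 and 1.49 at high CO2. On chromosome 3, peak4152 (chr3:545625-546709) had H3K9me2 at 3.47 and 3.60 at low CO2, against 1.45 and 1.54 at high CO2. Its Kbu was 2.09 and 2.19 at low CO2, against 0.99 and 1.04 at high CO2, so both marks appeared there together at low CO2. Its control fell by 1.49 (log2, Kbu libraries) relative to other peaks, and the part of this in the result was not tested.

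Counted by level, H3K9me2 was at least 2 times genome background in both low-CO2 libraries at 18 chromosome 2 peaks (4.79%) and 21 chromosome 3 peaks (6.21%), near the 5.13% of all peaks. Kbu was also at least 2 times genome background in both low-CO2 libraries at 15 and 20 of these, against 250 of 278 elsewhere. Kbu relative to the bulk was called higher at 14 and 17, and lower at 0 and 2. Against this, 68.3% of such peaks on the other chromosomes had higher Kbu. Of the 39 peaks, 4 and 8 lay inside the kept stretches. Inside the stretches H3K9me2 was called higher at 5 of 67 peaks on chromosome 2 and 6 of 33 on chromosome 3 (7.46% and 18.2%), and outside them at 9 of 309 and 7 of 305 (2.91% and 2.30%). On the other chromosomes the shares were 6.88% inside and 3.69% outside. Stretch peaks were picked by their Kbu change, and most H3K9me2 gains lay on peaks called higher in Kbu. The shares inside and outside are therefore not independent of that choice.

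**Figure D5:**
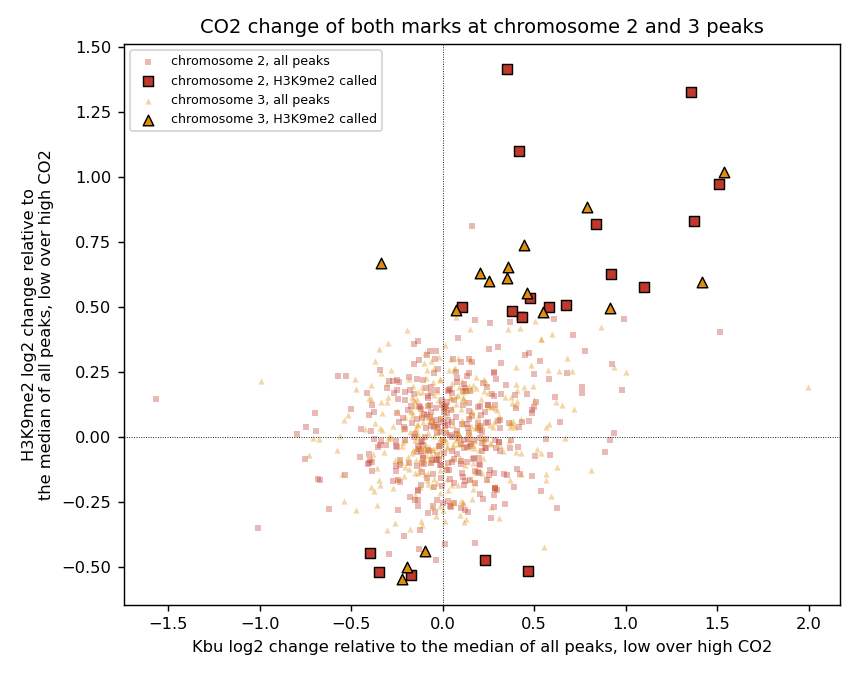
Relative log2 change (low over high CO2, minus the median of all peaks) of H3K9me2 (y axis) against Kbu (x axis) at the 714 peaks. Outlined symbols are the 27 peaks called higher and 8 called lower in H3K9me2; 23 of the 27 were also called higher in Kbu.

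The first peak of chromosome 3 parted the marks. Peak4058 (chr3:336-1071) had an H3K9me2 level of 2.52 and 2.30 at low CO2, against 1.22 and 1.39 at high CO2, and a Kbu level of 1.69 and 1.89 at low CO2, against 3.28 and 3.29 at high CO2. H3K9me2 rose by 0.67 ± 0.15 relative to the bulk (limma adjusted p = 6.64e-04) and Kbu fell by 0.34 ± 0.08 (limma adjusted p = 0.00495). It was the only one of the 714 peaks called in these opposite directions, against 12 elsewhere. At the other 3 chromosome ends, peak2373, peak2748 and peak4395, H3K9me2 was not called.

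The peaks with lower H3K9me2 at low CO2 had little of it at either CO2 level. The named ones were peak2588, peak2607 and peak2399 on chromosome 2 and peak4154 and peak4141 on chromosome 3, with mean levels of 1.30 to 1.38 at low CO2, against 1.63 to 1.81 at high CO2. None of these 5 was called in level over genome background by limma (adjusted p of 0.261 to 0.394), and each lost its call without some library. The gain at peak4311 was lost without H3K9me2 low-CO2 replicate 1 (limma adjusted p = 0.083).

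The authors' deposited table gives its own comparison of high over low CO2, on the control-divided value, with a status taken at an unadjusted p. In it, 56 chromosome 2 peaks (14.9%) and 54 chromosome 3 peaks (16.0%) have lower Kbu at high CO2, where 15.6% of all peaks do, and 11 (2.93%) and 3 (0.888%) have higher Kbu at high CO2, where 2.93% of all peaks do. The 3 on chromosome 3 stand beside 11 on chromosome 2 of similar length, a contrast that was not tested. The authors' deposited table marks H3K9me2 as lower at high CO2 at 30 and 23 peaks (7.98% and 6.80%), where 7.73% of all peaks are.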

How the data were processed

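Per the submitters' processing notes, Trim Galore, BWA, Picard, deepTools and MACS2 were used; versions, peak merging and the genome build are not given there. The authors deposited, for each of 8 libraries, a pileup signal, a control background signal (lambda, per the file headers) and a normalised signal, which for every peak is 10 times the pileup-to-lambda quotient, rounded down and scaled by a factor of its library. The authors' comparison adds a log2 fold change (high over low CO2), a test score (stat), a p-value and an adjusted p-value. Coordinates are as deposited (whether counted from 0 or 1 is not given), and width is end minus start. Pileups were whole multiples of a step per library, which gives the reads stacked at a peak. Reads stacked at a position differ from a count of the reads in a peak, and library totals are unknown.

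The CO2 levels were compared per mark with limma 3.58.1 in R 4.3.3 (two-sided, mean trend) on log2(scaled pileup + 1) over the 4 libraries of the mark and all 6185 peaks, with Benjamini-Hochberg adjustment and a threshold of 0.05. Changes are low over high CO2, minus the median of all peaks where called relative, and the pseudocount understates changes of weak peaks. The script was tested on simulated data. Segments cut each chromosome's peak span into 10 equal lengths. Named peaks were called with separated groups and a mean log2 scaled pileup above the lower quartile of all peaks: per chromosome the 5 largest Kbu and 3 largest H3K9me2 changes in each direction, plus end, widest, highest and stretch peaks. Alternatives were another pseudocount or scaling, a filter, the genome background, the deposited ratio, a replicate block and each library left out. Python 3.11.15, pandas 2.3.3, NumPy 2.4.6, SciPy 1.17.1 and Matplotlib 3.10.9 did the rest. The members, lists and tests were chosen with earlier results of these data known.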

Additional observations from a re-analysis of the deposited data

How the results depend on the processing

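Scaling to each library's summed peak pileup and a pseudocount of 5 left all 4 counts of calls over both chromosomes within 1.5 times. That scaling is also relative to the bulk, since library totals are unknown. Against genome background the Kbu calls were 26 higher and 570 lower, since the overall shift stays in, and H3K9me2 had 0 lower by limma (3 at an unadjusted p under 0.05). On the deposited normalised value they were 258 and 242 for Kbu and 162 and 105 for H3K9me2; the control enters this value by construction. Without the lowest 25% of peaks, with fewer peaks tested, 105 Kbu peaks were higher and 5 H3K9me2 peaks lower. With 1 library left out the counts were 106 to 225 and 67 to 191 for Kbu, and 14 to 16 and 0 to 7 for H3K9me2. The difference of chromosome 2 from the other chromosomes in Kbu was -0.052 (log2) on the deposited value, 0.049 without the lowest 25% and 0.056 with means, and 0.031 to 0.041 with libraries left out. For chromosome 3 these were -0.052, -0.0015, 0.042 and -0.036 to -0.023. For H3K9me2 it was 0 on both chromosomes on the deposited value, 0.022 on chromosome 3 without the lowest 25%, and 0 to 0.055 on chromosome 2 and 0.029 to 0.057 on chromosome 3 with libraries left out. Kept stretches of at least 8 peaks held 9 and 0 peaks, of at least 4 held 65 on chromosome 3, with a change above 0.25 held 0 on both, and on the deposited value held 36 on chromosome 2; with libraries left out they held 62 to 82 and 40 to 49. The causes were not tested. The replicate block changed no count of calls by over 1.5 times; same-numbered libraries share only a number, with correlations of their deviations of 0.11 (Kbu) and 0.042 (H3K9me2) over 2 pairs. The 2 libraries per group and the 29 to 69 reads at a median peak limit what H3K9me2 calls can show.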

Other observations

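Wider peaks carried more of both marks. The correlation of width with the mean Kbu level was 0.53 on chromosome 2 and 0.57 on chromosome 3 at low CO2, against 0.63 and 0.60 at high CO2. For H3K9me2 it was 0.39 and 0.40 at low CO2, against 0.40 and 0.30 at high CO2. All of these are across peaks of the same libraries, and peaks are not independent replicates.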
